A study of Mus musculus with 6 samples.

Results

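The liver releases glucose made from lactate, amino acids and glycerol, takes up glucose and fructose, and sets the direction of carbon flow between them. The genes described here are 10 that serve these steps: G6pc, Slc37a4, Pck1, Pcx and Fbp1 of glucose production, the glucose transporters Slc2a2 and Slc2a1, the fructose kinase Khk, and Pfkfb1 and Pfkfb3, which set the level of fructose 2,6-bisphosphate. They were chosen by symbol, and all 10 of them were found among the 48432 genes of the deposited table and were among the 14307 genes tested. RNA was sequenced from mouse hepatocytes of the FVB strain in 6 samples, 2 in each of 3 groups. The DDC fed group came from adults given a diet with DDC, a porphyrinogenic liver toxin, for 4 weeks. The E18 group came from fetuses of embryonic day 18, each sample a pool of about 8 embryos. The normal fed group came from adults on chow. All 3 groups share the strain and the poly(A)-selected stranded library kit, and the labels give neither the sex nor the age of the adults. Each group's samples are numbered 0 and 1, as in the table's columns, and the labels do not tell if each adult sample is a different animal. P-values therefore measure only the spread between these samples, which may be technical. The unit throughout is TPM, a level corrected for gene length and scaled to the same sum in every sample, on which genes can be compared within a sample. No counts were at hand, and the depth behind a value is unknown.

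Glucose is made from pyruvate through a route that bypasses the irreversible steps of glycolysis, and its last step, removal of phosphate from glucose 6-phosphate, takes place inside the endoplasmic reticulum and lets free glucose leave the cell. In mice this route is known to be switched on in the liver around birth, while the fetus lives on glucose from the mother across the placenta. Adult hepatocytes carry glucose across their membrane mainly through the low-affinity transporter encoded by Slc2a2, phosphorylate fructose with ketohexokinase, and keep a liver form of the bifunctional enzyme PFKFB that responds to glucagon.

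All 10 members lie in protein-coding genes of GENCODE M21 on GRCm38. G6pc (ENSMUSG00000078650.2) is at chr11:101367561-101377903 on the plus strand and Slc37a4 (ENSMUSG00000032114.8) at chr9:44396852-44402968 on the plus strand. Pck1 (ENSMUSG00000027513.11) is at chr2:173153048-173159273 on the plus strand, Pcx (ENSMUSG00000024892.15) at chr19:4510472-4621752 on the plus strand and Fbp1 (ENSMUSG00000069805.10) at chr13:62864753-62888282 on the minus strand. Slc2a2 (ENSMUSG00000027690.13) is at chr3:28697903-28731359 on the plus strand, Slc2a1 (ENSMUSG00000028645.11) at chr4:119108711-119137983 on the plus strand and Khk (ENSMUSG00000029162.15) at chr5:30921431-30931248 on the plus strand. Pfkfb1 (ENSMUSG00000025271.13) is at chrX:150588229-150643878 on the plus strand and Pfkfb3 (ENSMUSG00000026773.19) at chr2:11471433-11554077 on the minus strand.

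The promoters of Pck1, Khk, Slc2a1 and Pfkfb3 are shown because these 4 members had the largest differences between E18 and normal fed hepatocytes. Each line holds the 250 bases before a transcription start of RefSeq on GRCm38.p6, read 5′ to 3′ on the gene's own strand. They lie at chr2:173152823-173153072 on the plus strand (Pck1), chr5:30921309-30921558 on the plus strand (Khk), chr4:119108495-119108744 on the plus strand (Slc2a1) and chr2:11553930-11554179 on the minus strand (Pfkfb3, the upstream of its 2 windows). Capitals mark matches to 3 motifs searched on both strands: ACGTCA, the core of the cAMP response element, CACGTG, the E-box that factors of the MYC and USF families bind, and ACGTG, the core of the hypoxia response element, which CACGTG contains.
Pck1: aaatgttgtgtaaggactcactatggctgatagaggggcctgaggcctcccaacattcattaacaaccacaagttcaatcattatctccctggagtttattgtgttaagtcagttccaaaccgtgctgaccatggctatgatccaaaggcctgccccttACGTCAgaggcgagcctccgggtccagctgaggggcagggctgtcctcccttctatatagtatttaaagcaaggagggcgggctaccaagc
Khk: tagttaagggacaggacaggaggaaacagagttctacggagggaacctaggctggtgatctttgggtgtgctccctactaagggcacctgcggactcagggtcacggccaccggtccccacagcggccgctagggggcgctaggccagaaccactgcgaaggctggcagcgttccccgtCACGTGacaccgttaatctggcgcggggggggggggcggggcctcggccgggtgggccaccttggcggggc
Slc2a1: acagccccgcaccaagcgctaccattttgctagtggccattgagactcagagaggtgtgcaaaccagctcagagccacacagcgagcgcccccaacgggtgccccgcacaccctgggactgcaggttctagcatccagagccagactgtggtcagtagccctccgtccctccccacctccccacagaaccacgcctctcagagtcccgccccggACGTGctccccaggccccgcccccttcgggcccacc
Pfkfb3: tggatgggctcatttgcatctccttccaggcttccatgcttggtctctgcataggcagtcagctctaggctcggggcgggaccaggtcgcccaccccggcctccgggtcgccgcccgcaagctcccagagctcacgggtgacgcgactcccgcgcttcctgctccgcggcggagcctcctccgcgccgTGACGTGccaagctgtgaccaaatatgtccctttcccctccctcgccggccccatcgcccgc
The Pck1 window held ACGTCA, starting 91 bases before the start. The Khk window held CACGTG 71 bases before the start, and the Slc2a1 window held ACGTG 36 bases before it. In the Pfkfb3 window ACGTCA, on the strand opposite to the printed line, and ACGTG overlapped in a single run of capitals, 62 and 60 bases before the start. Over all 32851 windows of this length in the table, 6.47% held ACGTCA, 6.02% CACGTG and 16.6% ACGTG, against 4, 3 and 5 of the 17 windows of the members. Windows of the same gene were counted separately. The overlapping Slc37a4 windows at chr9:44396696-44396945 and chr9:44396849-44397098 hold the same ACGTCA site, which is therefore counted more than once. TATAAA, the core of the TATA box, was in 12.4% of all windows and in 3 of the members' 17, among them that of G6pc, 29 bases before its start. A match of letters is not a measured binding site.

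Of the hepatocyte markers, 14 were in the table, and 3 of them were listed at 0 in each sample, among them Alb in all 6, Apoa1 in the adults, Serpina1a in normal fed, Fga and Fgb in E18 and Cyp3a11 in DDC fed samples. Their summed level was 30919 and 29086 TPM in DDC fed, 17266 and 10845 TPM in E18 and 46735 and 36331 TPM in normal fed samples. Whether a listed 0 of so abundant a gene is a failed estimate was not settled, and since different markers were at 0 in each group, these sums do not compare the hepatocyte content of the groups. Markers of blood cells were high at E18: 14 erythroid markers summed to 37.9 TPM in each DDC fed sample, 12958 and 24293 TPM at E18 and 39.9 and 28.1 TPM in normal fed samples, and neutrophil and lymphocyte markers to 7.42 and 8.57 TPM in DDC fed, 56006 and 66686 TPM in E18 and 0.950 and 1.02 TPM in normal fed samples. All 13 tested erythroid markers and all 11 tested neutrophil and lymphocyte markers were higher at E18 than in normal fed samples, with Hbb-bs at 9657 ± 3971 TPM and S100a9 at 31350.4 ± 3243 TPM (SD, n = 2). Macrophage markers, 15 of 15 higher in both comparisons with normal fed, summed to 1423 and 1792 TPM in DDC fed, 4701 and 6080 TPM in E18 and 171.9 and 149.2 TPM in normal fed samples. Endothelial and stellate markers were also higher in both, in 11 and 12 of 13 and 13 tested with DDC and in 13 and 12 at E18. Of 10 tested cholangiocyte markers, 4 were higher with DDC and 7 at E18. Those shares, 40% and 70%, were near the 34.2% and 63% of all genes tested. The highest of each list by its mean over all 6 samples were Lyz2 (388.1 TPM in DDC fed, 3013 TPM in E18 and 22.9 TPM in normal fed samples), Clec4g (85.3, 45.6 and 16.0 TPM in the same groups), Dcn (218.9, 103.1 and 14.3 TPM) and Spp1 (62.1, 85.5 and 1.91 TPM). These are bulk samples, so fewer hepatocytes and less RNA per hepatocyte cannot be told apart. The part of these other cells in the results on the members and on the further gene lists below was not tested. In an alternative chosen after seeing the data, each sample was scaled to the 8 hepatocyte markers above 0 in all 6 samples, whose median log2 difference was -1.90 at E18 and -0.05 with DDC. These markers did not move alike: at E18 they ran from -6.99 (Tat) to -0.85 (Cps1), and with DDC from -2.89 (Cyp2e1) to 0.67 (Apob).

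Against normal fed hepatocytes, 1 member rose with DDC and none fell, while 2 rose and 5 fell at E18. Among all genes tested, 34.2% were higher and 3.07% lower with DDC, 37.3% in all, and 63% were higher and 12.7% lower at E18, 75.7% in all. The median log2 difference of the 10 members was 0.03 with DDC, against 0.45 over all genes tested, and -0.63 at E18, against 1.06 over all genes. At an unadjusted p under 0.05, 2 members were lower with DDC, G6pc and Pfkfb1. Both comparisons share the normal fed samples. When samples were scaled by median ratios in place of the sum of TPM, the median of all genes moved by -0.45 with DDC and by -0.98 at E18. With that scaling 2933 genes were higher and 1663 lower with DDC, in place of 4896 and 439, and 5434 were higher and 4553 lower at E18, in place of 9020 and 1815. Of the members, 0 then rose and 2 fell with DDC, and 2 rose and 7 fell at E18.

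**Figure D1:**
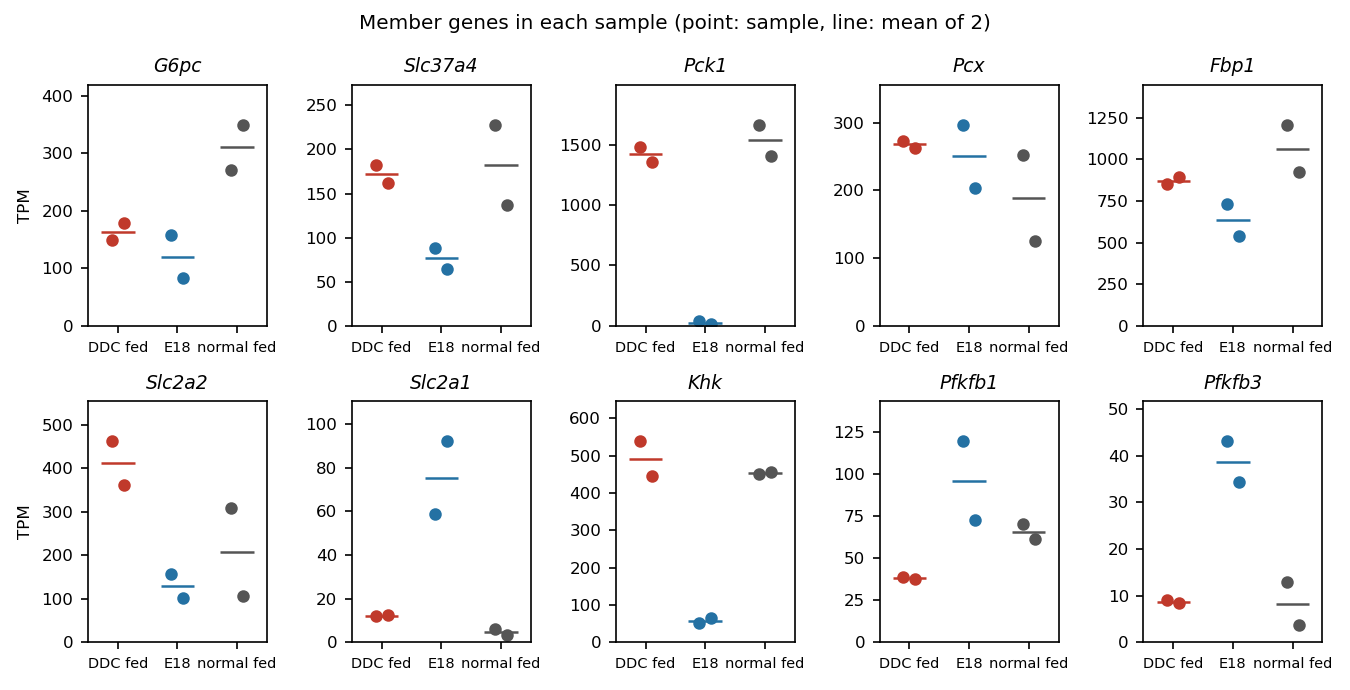
TPM of each member in each of the 6 samples, on linear axes from 0, with DDC fed left of E18 and normal fed; points are samples 0 (left) and 1 and lines are group means. Pck1 and Khk are low in both E18 samples, Slc2a1 and Pfkfb3 are high in both, and the 2 normal fed samples of Slc2a2 and Pfkfb3 lie far apart.

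G6pc encodes the catalytic subunit of glucose-6-phosphatase, the enzyme of the last step of glucose output. It had 148.7 and 178.2 TPM in DDC fed, 158.2 and 82.8 TPM in E18, and 270.6 and 349.7 TPM in normal fed hepatocytes. All 4 samples of the first 2 groups were below both normal fed samples, and the DDC fed and E18 ranges overlapped. At E18 it fell by 1.42 ± 0.34 on the log2(TPM + 1) scale (SE; limma adjusted p = 0.00746). The DDC difference of -0.91 ± 0.34 did not pass (adjusted p = 0.0751; 95% interval -1.72 to -0.11), but G6pc was called lower with DDC after median-ratio scaling (-1.59, adjusted p = 0.0255) and after a correction for exon length (-1.38, adjusted p = 0.0217). Scaled to hepatocyte markers, the E18 difference turned to 0.66 (adjusted p = 0.115).

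Slc37a4 encodes the transporter that brings glucose 6-phosphate into the endoplasmic reticulum, where G6pc acts. Its levels were 182.9 and 161.9 TPM in DDC fed, 88.1 and 65.0 TPM in E18, and 228.0 and 137.2 TPM in normal fed hepatocytes. Both DDC fed values lay between the normal fed values, and both E18 values lay below all 4 adult ones. Slc37a4 fell by 1.21 ± 0.30 (log2) at E18 relative to normal fed (adjusted p = 0.00855, and 0.0932 without E18 sample 1), while with DDC the difference was -0.04 ± 0.30 (adjusted p = 0.943; 95% interval -0.75 to 0.67). Scaled to hepatocyte markers the E18 difference was 0.86, the other way (adjusted p = 0.0263). The level of G6pc was 0.813 and 1.10 times that of Slc37a4 in DDC fed, 1.79 and 1.27 times in E18, and 1.19 and 2.55 times in normal fed samples, so the E18 ratios lay within the normal fed range and the DDC fed ratios below it.

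Pck1 encodes the cytosolic phosphoenolpyruvate carboxykinase, a gene induced by glucagon through cAMP and held down by insulin. It had 1483 and 1353 TPM in DDC fed, 37.4 and 16.4 TPM in E18, and 1665 and 1408 TPM in normal fed hepatocytes. The 4 adult samples overlapped, and both E18 samples were far below them. Pck1 ranked 91st in DDC fed, 5488th in E18 and 86th in normal fed hepatocytes among the genes tested, by mean TPM. It fell by 5.89 ± 0.38 (log2) at E18, a 59.2-fold lower level on the TPM + 1 scale (limma adjusted p = 1.35e-05), and passed with this direction in all 16 other settings (-7.06 to -3.84), the scaling to hepatocyte markers included. The DDC difference was -0.11 ± 0.38 (adjusted p = 0.851; 95% interval -1.02 to 0.80). DDC fed hepatocytes exceeded E18 hepatocytes by 5.78 ± 0.38 (adjusted p = 2.52e-05).

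Pcx encodes pyruvate carboxylase, the mitochondrial enzyme that makes the oxaloacetate from which Pck1 works. Its values were 272.5 and 263.1 TPM in DDC fed, 296.8 and 203.9 TPM in E18, and 251.6 and 125.6 TPM in normal fed hepatocytes. Both DDC fed samples lay just above the higher normal fed sample, and the E18 samples overlapped both adult groups. Pcx did not pass in either comparison: the difference was 0.59 ± 0.37 with DDC (adjusted p = 0.246; 95% interval -0.28 to 1.46) and 0.47 ± 0.37 at E18 (adjusted p = 0.278; 95% interval -0.41 to 1.34). Without normal fed sample 0 the DDC difference was 1.09 (adjusted p = 0.0137) and the E18 difference 0.96 (adjusted p = 0.0141), and both passed. Without normal fed sample 1 they were 0.09 (adjusted p = 0.821) and -0.03 (adjusted p = 0.913). With hepatocyte marker scaling the E18 difference was 2.55 (adjusted p = 1.08e-06). Pck1 stood at 5.44 and 5.14 times Pcx in DDC fed, 0.126 and 0.0805 times in E18, and 6.62 and 11.2 times in normal fed samples.

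Fbp1 encodes the liver fructose-1,6-bisphosphatase, the enzyme that fructose 2,6-bisphosphate inhibits. It had 850.5 and 893.7 TPM in DDC fed, 734.4 and 539.9 TPM in E18, and 1207 and 920.8 TPM in normal fed hepatocytes. The 3 groups did not overlap, with E18 lowest and normal fed highest. At E18 Fbp1 fell by 0.74 ± 0.28 (adjusted p = 0.0475), the call nearest the threshold, which passed as lower in 7 of 16 other settings and was lost without E18 sample 0 (0.0539) or 1 (0.2), without DDC fed sample 0 (0.118) or 1 (0.119), and without normal fed sample 0 (0.09). Scaled to hepatocyte markers it was higher at E18 (1.34, adjusted p = 0.00268). The DDC difference of -0.27 ± 0.28 did not pass (adjusted p = 0.481; 95% interval -0.95 to 0.40). Fbp1 ranked 168th in DDC fed, 213th in E18 and 149th in normal fed hepatocytes by mean TPM.

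Slc2a2 encodes GLUT2, the low-affinity glucose transporter of the adult hepatocyte. It had 462.6 and 361.1 TPM in DDC fed, 157.5 and 101.8 TPM in E18, and 310.1 and 107.1 TPM in normal fed hepatocytes. Both DDC fed samples were the highest, and the E18 range overlapped that of the normal fed group, whose samples differed by a factor of 2.9. Neither difference from normal fed passed: 1.16 ± 0.50 with DDC (adjusted p = 0.113; 95% interval -0.03 to 2.35) and -0.52 ± 0.50 at E18 (adjusted p = 0.368; 95% interval -1.72 to 0.67). The DDC difference passed without normal fed sample 0 (1.92, adjusted p = 0.0042), with the replicate number as a block (adjusted p = 0.0205) and with hepatocyte marker scaling (1.26, adjusted p = 0.0196). Without normal fed sample 1 the DDC difference was 0.40 (adjusted p = 0.364). The E18 difference was 0.24 without normal fed sample 0 (adjusted p = 0.491) and 1.55 with hepatocyte marker scaling (adjusted p = 0.000709), and Slc2a2 was called lower at E18 without normal fed sample 1 (-1.29, adjusted p = 0.0116), after median-ratio scaling (-1.72, adjusted p = 0.0107) and after the length correction (-1.76, adjusted p = 0.00594).

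Slc2a1 encodes GLUT1, the high-affinity transporter of most fetal and dividing cells. It had 12.0 and 12.3 TPM in DDC fed, 58.9 and 92.1 TPM in E18, and 6.09 and 3.41 TPM in normal fed hepatocytes. The 3 groups were fully apart, with E18 highest and normal fed lowest. Slc2a1 was the 1 member that rose with DDC, by 1.23 ± 0.31 (log2; 2.35-fold on the TPM + 1 scale; limma adjusted p = 0.0219), from a low level. That call held in 7 of 16 other settings and had an adjusted p of 0.0936 after median-ratio scaling (difference 0.67), 0.054 when normal fed sample 1 was left out, 0.109 and 0.117 without DDC fed sample 0 or 1, and 0.0596 and 0.0601 without E18 sample 0 or 1. At E18 it rose by 3.74 ± 0.31 (13.4-fold; adjusted p = 4.59e-05), which held in all 16 settings (2.64 to 5.66). Erythroid and myeloid markers are high in the same 2 E18 samples, with the sums given above. With DDC all 15 macrophage markers and most endothelial and stellate markers rose, as did 34.2% of all genes tested. The part of these cells in the Slc2a1 differences was not tested. Slc2a2 stood at 38.6 and 29.3 times Slc2a1 in DDC fed, 2.68 and 1.11 times in E18, and 50.9 and 31.4 times in normal fed samples: the adult groups overlapped and both E18 samples were below them.

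Khk encodes ketohexokinase, which phosphorylates fructose to fructose 1-phosphate. Values are per gene, so the liver isoform and the widely expressed one are not separated. It had 538.7 and 445.9 TPM in DDC fed, 51.0 and 64.4 TPM in E18, and 452.0 and 457.0 TPM in normal fed hepatocytes. The normal fed values lay within the DDC fed range, and both E18 samples were well below all adult ones. Khk fell by 2.97 ± 0.23 at E18 (7.81-fold lower; adjusted p = 2.94e-05) and passed with this direction in all 16 other settings, from -4.16 to the -0.89 of hepatocyte marker scaling (adjusted p = 0.0403). With DDC the difference was 0.11 ± 0.23 (adjusted p = 0.74; 95% interval -0.43 to 0.65), the narrowest interval of the 10 members in that comparison.

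Pfkfb1 encodes the liver bifunctional enzyme that makes or removes fructose 2,6-bisphosphate, the activator of glycolysis. Values are per gene, so transcripts from its separate RefSeq starts are not told apart. It had 38.7 and 37.7 TPM in DDC fed, 119.5 and 72.4 TPM in E18, and 70.4 and 61.3 TPM in normal fed hepatocytes. The 3 groups did not overlap, with DDC fed lowest and E18 highest. The DDC difference of -0.77 ± 0.27 missed the threshold (adjusted p = 0.0633; 95% interval -1.41 to -0.13) and passed in 7 of 16 other settings, among them median-ratio scaling (-1.43, adjusted p = 0.00835), the replicate block (adjusted p = 0.0381) and leaving out E18 sample 0 or 1 (adjusted p = 0.0414 and 0.0411). At E18 the difference was 0.50 ± 0.27 and did not pass (adjusted p = 0.132; 95% interval -0.14 to 1.14), but it did without E18 sample 1 (0.85, adjusted p = 0.0287), and it was 0.14 without E18 sample 0 (adjusted p = 0.568). It was -0.69 with median-ratio scaling (adjusted p = 0.0494) and 2.56 with hepatocyte marker scaling (adjusted p = 6.84e-07). Set against E18, DDC fed hepatocytes had less Pfkfb1, by -1.26 ± 0.27 (adjusted p = 0.00568), and this passed in all 16 other settings.

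Pfkfb3 encodes the form with the strongest kinase activity, known from dividing cells, myeloid cells and the hypoxia response. It had 8.98 and 8.49 TPM in DDC fed, 43.1 and 34.3 TPM in E18, and 12.9 and 3.75 TPM in normal fed hepatocytes. The DDC fed values lay within the wide normal fed range, and both E18 values lay above every adult one. Pfkfb3 rose by 2.28 ± 0.47 at E18 (4.86-fold on the TPM + 1 scale; adjusted p = 0.00382), with adjusted p-values of 0.0723 and 0.0536 without E18 sample 0 or 1 and the same direction in all 16 settings (0.94 to 4.24). With DDC the difference was 0.26 ± 0.47 (adjusted p = 0.697; 95% interval -0.86 to 1.38), and it was 1.04 without normal fed sample 0 (adjusted p = 0.00565) and -0.51 without normal fed sample 1 (adjusted p = 0.0757). With normal fed sample 1 left out, the E18 difference was 1.51 (adjusted p = 0.000784). Neutrophil and macrophage markers are high in the same E18 samples, and the part of those cells in the Pfkfb3 difference was not tested. Pfkfb1 stood at 4.31 and 4.44 times Pfkfb3 in DDC fed, 2.77 and 2.11 times in E18, and 5.47 and 16.4 times in normal fed samples, 3 ranges that did not overlap.

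**Figure D2:**
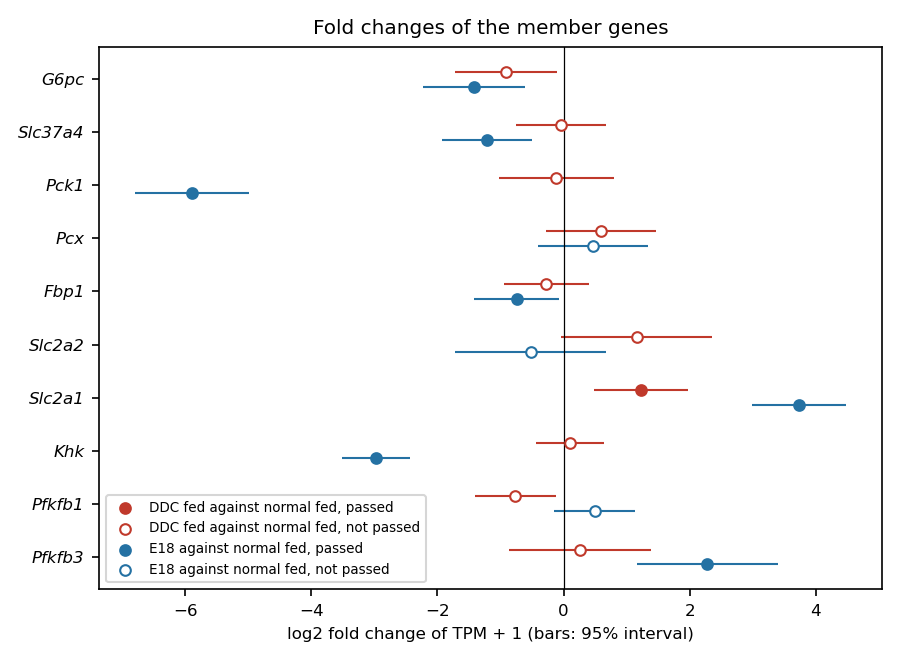
Log2 difference (TPM + 1 scale) of each member, DDC fed against normal fed in red above E18 against normal fed in blue; points are estimates, filled where the adjusted p passed the threshold and open where it did not, and bars are 95% intervals from the fit. At E18 Pck1 lies at -5.89, Khk at -2.97 and Slc2a1 at 3.74 relative to normal fed, while with DDC the estimates run from -0.91 (G6pc) to 1.23 (Slc2a1).

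By overlap of samples alone, 3 members (Pcx, Slc2a1 and Slc2a2) had both DDC fed samples above both normal fed ones and 3 (G6pc, Fbp1 and Pfkfb1) had both below, where 62.4% and 8.99% of all genes tested did. At E18, 3 members (Slc2a1, Pfkfb1 and Pfkfb3) were above and 5 (G6pc, Pck1, Fbp1, Slc37a4 and Khk) below, against 69.7% and 16.7% of all genes. Directly between DDC fed and E18, 4 members were called higher in DDC fed hepatocytes and 3 lower, where 17.7% and 47% of all genes tested were, 64.7% in all. With median-ratio scaling, 3985 genes were higher and 4877 lower in that comparison in place of 2532 and 6723, and 5 members were higher and 3 lower. The median log2 difference was 0.49 over the members and -0.55 over all genes. The higher members were Pck1, Khk (3.07 ± 0.23, adjusted p = 4.09e-05), Slc2a2 (1.68 ± 0.50, adjusted p = 0.0224) and Slc37a4 (1.17 ± 0.30, adjusted p = 0.0122), and the lower ones Slc2a1 (-2.50 ± 0.31, adjusted p = 0.000493), Pfkfb3 (-2.02 ± 0.47, adjusted p = 0.00838) and Pfkfb1. The Slc2a2 call was lost without any 1 of the DDC fed or E18 samples (adjusted p = 0.0602 to 0.206), as was that of Slc37a4 (0.0514 to 0.121), and that of Pfkfb3 without either E18 sample (0.112 and 0.0861). Hepatocyte marker scaling turned Slc2a2 to -0.30 and Slc37a4 to -0.80, and then 2 members were higher and 7 lower in DDC fed hepatocytes. That scaling lowers all genes in this comparison, its log2 factors differing by 1.99, so this count is not a result about the members. G6pc (0.50 ± 0.34, adjusted p = 0.229), Fbp1 (0.47 ± 0.28, adjusted p = 0.186) and Pcx (0.12 ± 0.37, adjusted p = 0.784) did not pass.

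In normal fed hepatocytes, 8 of 10 members were lower in sample 1 than in sample 0, by up to 3.44 times for Pfkfb3, and G6pc and Khk were higher. The factor by which median-ratio scaling divides a sample was also lower in normal fed sample 1 (0.565) than in sample 0 (0.760). That factor is taken over all genes, and how many of all genes were lower in sample 1 is not given. The count is therefore not read as a result about the members, and the cause of these differences was not tested. The 2 DDC fed samples differed by at most 1.28 times for any member, and the 2 E18 samples by at most 2.28 times, for Pck1.

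Pck1 and G6pc were set beside the other gene of the same reaction, and both ratios were highest in normal fed and lowest in E18 hepatocytes. Pck1 stood at 606 and 528.6 times Pck2, the mitochondrial enzyme of the same reaction, in DDC fed, at 1.58 and 0.541 times in E18, and at 2895 and 8020 times in normal fed samples, so that the groups were apart and at E18 both genes were at like levels. The normal fed ratios rest on Pck2 values of 0.575 and 0.176 TPM, under the filter level of 1 TPM and of unknown depth. Pck1 itself overlapped between the DDC fed and normal fed samples. Pck2 itself averaged 2.50 ± 0.0798 TPM in DDC fed, 27.0 ± 4.68 TPM in E18 and 0.375 ± 0.282 TPM in normal fed hepatocytes, and it rose in both comparisons (1.36 ± 0.22 with DDC, adjusted p = 0.00393, and 4.35 ± 0.22 at E18, adjusted p = 4.95e-06). The ratio of G6pc to G6pc3, the widely expressed phosphatase, was 18.7 and 23.1 in DDC fed, 8.04 and 3.37 in E18, and 73.8 and 107.2 in normal fed samples, again with no overlap.

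**Figure D3:**
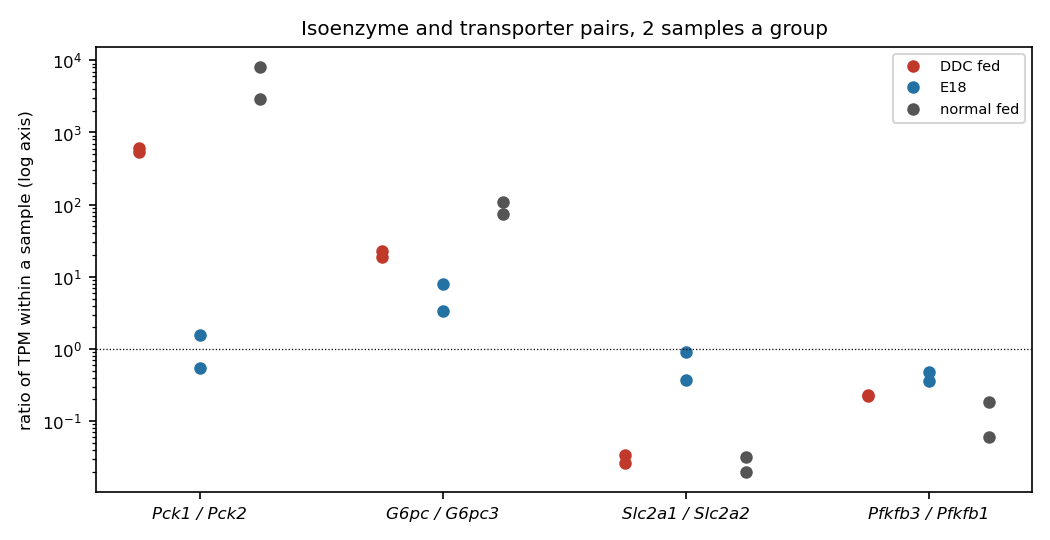
Ratio of TPM between paired genes within each of the 6 samples, on a log axis, with DDC fed (red) left of E18 (blue) and normal fed (grey) for each pair; each point is a sample, the dotted line marks equal levels, and the transporter and PFKFB pairs are drawn as Slc2a1 over Slc2a2 and Pfkfb3 over Pfkfb1. The ratio of Pck1 to Pck2 runs from 0.541 in an E18 sample to 8020 in a normal fed sample, where Pck2 was at 0.176 TPM. That of G6pc to G6pc3 runs from 3.37 in an E18 sample to 107.2 in a normal fed sample.

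The other genes of these pathways were read from 7 lists, beside the 34.2% of all genes tested that rose and the 3.07% that fell with DDC (median 0.45) and the 63% that rose and 12.7% that fell at E18 (median 1.06). With DDC the share that rose was 35.7% for glucose output, 38.9% for the hypoxia-inducible genes and 40.9% for glycogen, near that of all genes, 58.3% for glucose phosphorylation and the PFKFB step, and 22.2%, 20% and 12% for hexose transporters, fructose and polyol handling and regulators. At E18 it was 66.7% for glucose phosphorylation and the PFKFB step, 55.6% for hexose transporters and 54.5% for glycogen, near that of all genes, 88.9% for the hypoxia-inducible genes, 44% and 42.9% for regulators and glucose output, and 0% for fructose and polyol handling, of which 70% fell. A share near that of all genes is not a result about its list. Of 28 tested genes of glucose output (the shared reversible steps, transaminases, shuttles and paralogs), 10 rose and 0 fell with DDC, with a median log2 difference of 0.55, and none was lower at an unadjusted p under 0.05. Median-ratio scaling gave 4 higher and 2 lower. Smallest in adjusted p were Slc37a2 (1.29 ± 0.20, adjusted p = 0.0033), Slc37a1 (1.53 ± 0.25, adjusted p = 0.0036), both phosphate antiporters of the family of Slc37a4, and Pck2. At E18, 12 of the 28 rose and 7 fell, with a median of 0.42, and with median-ratio scaling 8 rose and 14 fell. Gpt, the alanine transaminase that feeds pyruvate to Pcx, was at 373.3 ± 30.4 TPM in DDC fed, 3.71 ± 0.292 TPM in E18 and 273.2 ± 109.2 TPM in normal fed hepatocytes (E18 difference -5.80 ± 0.29, adjusted p = 4.7e-06). G6pc3 rose at E18 by 2.37 ± 0.20 (adjusted p = 5.39e-05), with 7.83 ± 0.153 TPM in DDC fed, 22.1 ± 3.43 TPM in E18 and 3.46 ± 0.287 TPM in normal fed hepatocytes.

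Of 25 regulators, 3 rose and 1 fell with DDC (median 0.16), and 11 rose and 6 fell at E18 (median 0.58). With median-ratio scaling the counts were 0 and 6 with DDC and 5 and 13 at E18. Gcgr, the glucagon receptor, was at 220.5 ± 12.5 TPM in DDC fed, 14.9 ± 4.89 TPM in E18 and 212.5 ± 8.55 TPM in normal fed hepatocytes, and fell by 3.78 ± 0.25 at E18 (log2; adjusted p = 1.55e-05). Nr0b2, the nuclear receptor SHP, fell by 3.95 ± 0.24 (adjusted p = 9.51e-06). Nr4a1, an immediate early nuclear receptor that activates gluconeogenic genes, rose by 1.78 ± 0.37 with DDC (adjusted p = 0.00992) and by 4.95 ± 0.37 at E18 (adjusted p = 2.56e-05), at 13.0 ± 7.22 TPM in DDC fed, 116.3 ± 8.40 TPM in E18 and 2.83 ± 0.656 TPM in normal fed hepatocytes. Its DDC call was lost after median-ratio scaling (1.24, adjusted p = 0.0575), with only the compared groups (adjusted p = 0.0606) and without E18 sample 0 or 1. Irs2 (0.85 ± 0.27, adjusted p = 0.049) and Prkaa1 (0.95 ± 0.29, adjusted p = 0.0401), of insulin and energy signaling, rose with DDC, calls lost in 13 and 10 of 16 other settings. For Irs2 these include the settings without normal fed sample 1, either DDC fed or either E18 sample (adjusted p = 0.0832 to 0.309), and for Prkaa1 those without either DDC fed or either E18 sample (0.126 to 0.192). Onecut1, a liver transcription factor, was the 1 that fell (-2.47 ± 0.74, adjusted p = 0.0384), at 10.3 ± 0.136 TPM in DDC fed, 28.7 ± 13.9 TPM in E18 and 84.9 ± 83.1 TPM in normal fed hepatocytes. The normal fed samples had 143.7 and 26.1 TPM, and the call was lost without either DDC fed (0.137 and 0.134) or either E18 sample (0.128 and 0.127).

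Of 9 tested hexose transporters, 2 rose and 0 fell with DDC (median 0.42; none lower at an unadjusted p under 0.05), and 5 rose and 2 fell at E18 (median 1.31). Median-ratio scaling gave 1 and 0 with DDC and 5 and 4 at E18. Slc2a4, the insulin-responsive GLUT4 of muscle and fat, rose with DDC by 1.78 ± 0.39 (adjusted p = 0.0128, and 0.0502 and 0.0873 without normal fed sample 1 or DDC fed sample 0) and at E18 by 2.40 ± 0.39 (adjusted p = 0.00129), at 7.42 ± 2.72 TPM in DDC fed, 12.0 ± 4.92 TPM in E18 and 1.47 ± 0.892 TPM in normal fed hepatocytes. Slc2a3, the GLUT3 of neurons and white blood cells, rose at E18 by 6.42 ± 0.18 (adjusted p = 1.39e-06), at 0.287 ± 0.142 TPM in DDC fed, 86.0 ± 2.41 TPM in E18 and 0.0124 ± 0.0175 TPM in normal fed hepatocytes. The E18 level of Slc2a3 was close to the 75.5 ± 23.5 TPM of Slc2a1. Blood cell markers are high in the same samples, and the part of those cells was not tested. Slc2a6, a lysosomal transporter, rose at E18 by 1.31 ± 0.13 (adjusted p = 0.000114, and 0.0962 after the length correction), and by 0.42 ± 0.13 with DDC (adjusted p = 0.0442), a call lost in 9 of 16 other settings, those without any 1 adult sample included (0.0877 to 0.215), and turned to -0.11 by the length correction (0.665).

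Around Khk, of 10 genes of fructose and polyol handling, 2 rose and 0 fell with DDC (median 0.03), against 0 and 7 at E18 (median -1.67), where none was higher at an unadjusted p under 0.05. Median-ratio scaling gave 2 and 4 with DDC and 0 and 10 at E18, and hepatocyte marker scaling 4 higher and 2 lower at E18. The latter scaling raises all genes at E18 relative to normal fed. Tkfc, the kinase of the glyceraldehyde that fructose 1-phosphate yields, was at 528.5 ± 107.5 TPM in DDC fed, 28.2 ± 5.92 TPM in E18 and 114.3 ± 55.5 TPM in normal fed hepatocytes: it rose with DDC by 2.27 ± 0.37 (adjusted p = 0.00381) and fell by 1.91 ± 0.37 at E18 (adjusted p = 0.00289, and 0.0583 without E18 sample 1), which hepatocyte marker scaling turned to 0.14 (0.706). Akr1b3, the aldose reductase that turns glucose into sorbitol, rose with DDC by 1.36 ± 0.19 (adjusted p = 0.00207), at 122.9 ± 6.96 TPM in DDC fed, 40.6 ± 2.51 TPM in E18 and 47.5 ± 5.54 TPM in normal fed hepatocytes. Sord, which turns sorbitol into fructose, fell by 2.40 ± 0.24 at E18 (adjusted p = 0.00012, and 0.419 with hepatocyte marker scaling), and Mlxipl, which encodes the carbohydrate-responsive factor ChREBP, fell by 2.97 ± 0.31 (adjusted p = 0.000127). Mlxipl had 124.6 ± 21.8 TPM in DDC fed, 23.2 ± 9.58 TPM in E18 and 180.9 ± 7.99 TPM in normal fed hepatocytes.

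Of 12 tested genes of glucose phosphorylation and the PFKFB step, 7 rose and 0 fell with DDC (median 0.85), and 8 rose and 3 fell at E18 (median 2.92). With median-ratio scaling 5 rose and 0 fell with DDC, and 8 rose and 3 fell at E18. Hk1, the hexokinase of most tissues, rose at E18 by 7.45 ± 0.24 (adjusted p = 1.51e-06), at 1.77 ± 0.277 TPM in DDC fed, 214.4 ± 47.0 TPM in E18 and 0.222 ± 0.173 TPM in normal fed hepatocytes. Pfkfb4 (3.82 ± 0.20, adjusted p = 5.29e-06) and Pfkp (4.05 ± 0.22, adjusted p = 5.72e-06), a further PFKFB form and a phosphofructokinase, rose at E18 too. With DDC, Hkdc1, a hexokinase-like gene, rose by 2.55 ± 0.27 (adjusted p = 0.000659), at 4.98 ± 0.380 TPM in DDC fed, 13.0 ± 5.34 TPM in E18 and 0.0194 ± 0.0275 TPM in normal fed hepatocytes. Pfkp (1.47 ± 0.22, adjusted p = 0.00245) and Hk3 (1.36 ± 0.24, adjusted p = 0.00486), the hexokinase of white blood cells, rose with DDC as well. The Pfkp call was lost after the length correction (0.84, adjusted p = 0.0534). Blood cell markers are high in the E18 samples, and macrophage markers rose in both comparisons. The part of those cells in these differences was not tested.

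Of 22 glycogen genes, 9 rose and 0 fell with DDC (median 0.61), and 12 rose and 1 fell at E18 (median 0.78). Median-ratio scaling gave 6 and 2 with DDC and 6 and 9 at E18. Pygb, the brain glycogen phosphorylase, rose with DDC by 3.92 ± 0.24 (adjusted p = 0.000106) and at E18 by 4.53 ± 0.24 (adjusted p = 5.99e-06), at 23.6 ± 0.444 TPM in DDC fed, 37.0 ± 6.73 TPM in E18 and 0.651 ± 0.373 TPM in normal fed hepatocytes. Gyg, glycogenin, the primer of glycogen, rose by 2.64 ± 0.20 (adjusted p = 0.000196) and 4.54 ± 0.20 (adjusted p = 2.82e-06), at 15.3 ± 0.227 TPM in DDC fed, 60.0 ± 4.04 TPM in E18 and 1.62 ± 0.322 TPM in normal fed hepatocytes. Pgm2 rose with DDC by 2.33 ± 0.23 (adjusted p = 0.00049), and Pygm, the muscle phosphorylase, at E18 by 2.34 ± 0.14 (adjusted p = 8.59e-06). Macrophage, endothelial and stellate markers rose in both comparisons, and the part of those cells in the glycogen genes was not tested.

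Of 18 hypoxia-inducible genes, read because Slc2a1 and Pfkfb3 are known targets of that response, 7 rose and 1 fell with DDC (median 0.57), and 16 rose and 0 fell at E18 (median 1.72; 1 lower at an unadjusted p under 0.05). Scaling by median ratios gave counts of 4 and 3 with DDC and 9 and 2 at E18. Ndrg1 rose by 3.71 ± 0.23 with DDC (adjusted p = 0.000109) and by 7.16 ± 0.23 at E18 (adjusted p = 1.51e-06), at 21.0 ± 4.05 TPM in DDC fed, 239.1 ± 28.9 TPM in E18 and 0.679 ± 0.268 TPM in normal fed hepatocytes. Adm (1.78 ± 0.22, adjusted p = 0.00111) and Egln3 (1.45 ± 0.22, adjusted p = 0.0028) rose with DDC, while Vegfa was the 1 that fell (-0.86, adjusted p = 0.018), a call lost without DDC fed sample 0 (0.175) or 1 (0.0962) and with hepatocyte marker scaling (0.141). Slc16a3, a lactate exporter (6.72 ± 0.28, adjusted p = 2.25e-06), and Hk2 (4.09 ± 0.23, adjusted p = 6.61e-06) rose at E18. Markers of blood cells are high in the same E18 samples, and the part of other cells in the hypoxia-inducible genes was not tested. Some genes, among them Slc2a5, Slc2a8, Eno1, Ldha, Pgk1 and Hk2, stand in more than 1 of the 7 lists.

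**Figure D4:**
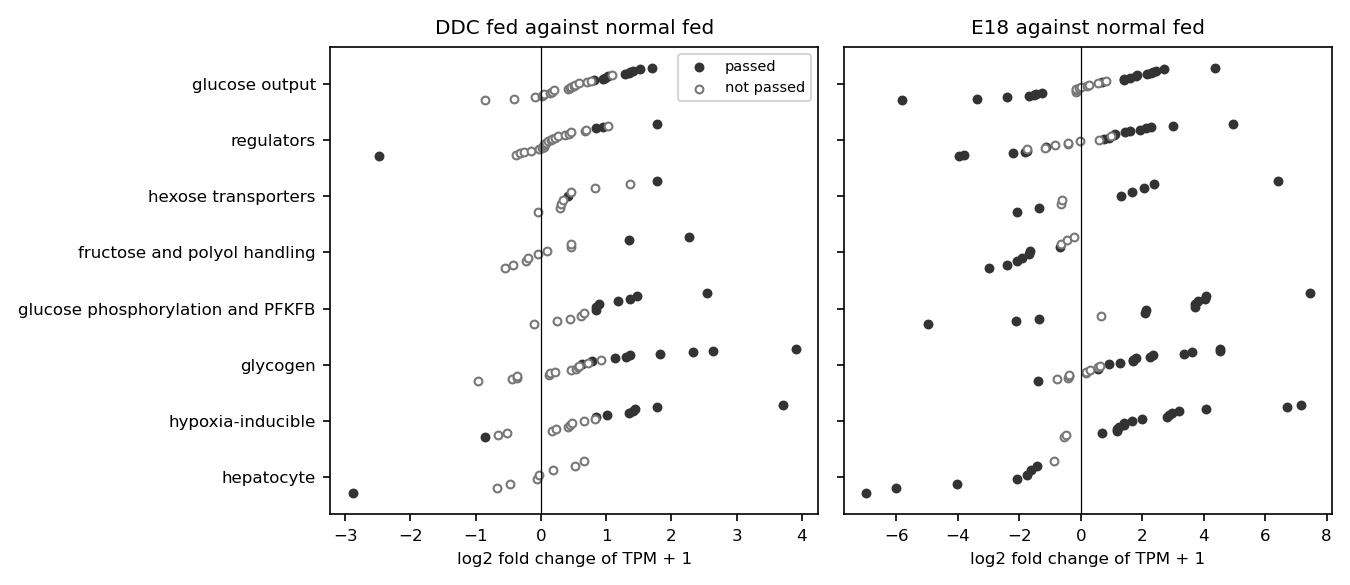
Log2 difference (TPM + 1 scale) of each tested gene of the 7 lists and of the hepatocyte markers, DDC fed against normal fed on the left and E18 against normal fed on the right; each point is a gene, filled where it passed the threshold and open where it did not, in order of size within its list, and genes listed at 0 in both samples of a group are left out. At E18 the medians over all tested genes of a list are 2.92 for glucose phosphorylation and the PFKFB step and -1.67 for fructose and polyol handling.

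Among 8073 protein-coding genes with a mean of at least 10 TPM, the likeness to 4 members was measured as the Euclidean distance between centred log2(TPM + 1) values over the 6 samples. Nearest to G6pc were Dnajb9 (distance 0.386), Prodh2 (0.404) and Syvn1 (0.455). Dnajb9 had 125.7 and 165.5 TPM in DDC fed, 114.1 and 63.8 TPM in E18, and 190.8 and 237.0 TPM in normal fed samples, in the same order of groups as G6pc. Nearest to Fbp1 were Etfdh (0.186), Nfil3 (0.215) and Mccc2 (0.222). Nearest to Slc2a1 were Irf8 (0.287), Ptpn6 (0.342) and Tmem164 (0.376), and Irf8 had 5.18 and 6.13 TPM in DDC fed, 32.4 and 43.0 TPM in E18, and 2.11 and 1.13 TPM in normal fed samples. Nearest to Khk were Srr (0.402), Mrap (0.454) and Sqor (0.487). With 6 samples in 3 groups, many genes share such a pattern.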

How the data were processed

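The authors' deposited table gives TPM, transcript abundance scaled to a fixed sum, for 48432 genes. Its 6 columns were assigned to groups by their names. GRCm38 (mm10) is the build in the submitters' processing notes, which also list STAR 2.4.2a, HTSeq, Cuffdiff 2.2.1, DESeq2, Trimmomatic, Picard 1.119 and bcl2fastq 2.17.1.14 and give no role for any of them. What computed the TPM values is not given in the sources used here. Gene identifiers were matched to GENCODE M21 without their version, which found 48053. Since TPM sums to the same total in every sample, a few very high genes lower the values of all others.

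The 14307 genes that reached 1 TPM in 2 or more samples were tested. Group means were fitted to log2(TPM + 1) by limma 3.58.1 (R 4.3.3) over all 6 samples together, with 3 residual degrees of freedom and variances moderated along the mean. Fold changes on this scale understate the change of low genes. P-values are two-sided and adjusted by Benjamini and Hochberg over all genes tested, with a threshold of 0.05, for 3 comparisons. A count test was not possible without counts. The 10 members and the gene lists were chosen with earlier results of these data known, so no p-value was adjusted within a list. All members are named. From each further list the text names the 3 genes with the smallest adjusted p in each comparison with normal fed hepatocytes, or all that passed where these were 5 or fewer, and the highest marker of each other cell type. Vegfa was named after its values were seen. Some genes of the lists are not reported here by name. There were 16 other settings: pseudocounts of 0.1 and 5, no filter, a filter at a mean of 5 TPM, scaling by median ratios, rescaling without the 50 highest genes and erythroid markers, a correction for exon length, the replicate number as a block, only the compared groups, each sample left out in turn, and scaling to hepatocyte markers. Promoter windows are from RefSeq on GRCm38.p6, which held all 10 members.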

Additional observations from a re-analysis of the deposited data

How the results depend on the processing

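Over 16 other settings and 3 comparisons the members gave 480 values. Of these, 399 kept their direction and their side of the threshold, and 31 kept the direction but no longer passed. A further 22 passed that had not, and 28 changed sign. The 2 other filters, the replicate block, only the compared groups and leaving out a sample of the group not compared cannot change a difference, only its p-value. In those settings the direction was fixed in advance, here and wherever the 16 settings are cited. At E18 against normal fed, Pck1 and Khk stayed lower and Slc2a1 higher, past the threshold, in all 16 settings. The count of members higher with DDC, 1 as reported, was 0 with no filter, median-ratio scaling, the length correction or only the compared groups, and 2 with the replicate block or hepatocyte marker scaling. The count lower with DDC, 0 as reported, was 2 with median-ratio scaling or the length correction and 1 with rescaling, the replicate block or only the compared groups. With hepatocyte marker scaling 7 members were higher and 2 lower at E18, in place of 2 and 5. In DDC fed against E18, 2 were then higher and 7 lower, in place of 4 and 3. The log2 factors by which this scaling divides a sample differed by -2.09 at E18 against normal fed and by 1.99 in DDC fed against E18. It therefore raises all genes in the first comparison and lowers all in the second, so these counts are not a result about the members. Leaving out 1 sample gave 0 to 4 higher and 0 to 1 lower with DDC, 1 to 3 higher and 3 to 6 lower at E18, and 2 to 4 higher and 2 to 3 lower in DDC fed against E18. The causes of these changes were not tested.

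Signs turned as follows. Median-ratio scaling gave -0.083 for Pcx, -0.56 for Khk and -0.32 for Pfkfb3 with DDC, and -0.73 for Pcx and -0.69 for Pfkfb1 at E18. The length correction gave -0.27 for Khk and -0.36 for Pfkfb3 with DDC, and -0.69 for Pcx and -0.57 for Pfkfb1 at E18, and rescaling gave -0.067 for Khk with DDC. Hepatocyte marker scaling gave 0.062 for Slc37a4 with DDC. At E18 it gave 0.66 for G6pc, 1.34 for Fbp1, 1.55 for Slc2a2 and 0.86 for Slc37a4. In DDC fed against E18 it gave -1.47 for G6pc, -1.52 for Fbp1, -1.86 for Pcx, -0.30 for Slc2a2 and -0.80 for Slc37a4. Over the 6 fits without 1 sample each, differences with DDC ran from -0.23 to 0.0092 for Pck1, -0.40 to 0.32 for Slc37a4, -0.028 to 0.24 for Khk and -0.51 to 1.04 for Pfkfb3. At E18 they ran from -0.032 to 0.96 for Pcx and -1.29 to 0.24 for Slc2a2, and in DDC fed against E18 from -0.15 to 0.39 for Pcx. These turns came without normal fed sample 0 for Pck1, Slc37a4 and Slc2a2, without normal fed sample 1 for Pfkfb3 and for Pcx at E18, without DDC fed sample 0 for Khk, without DDC fed sample 1 for Slc37a4 and without E18 sample 1 for Pcx in DDC fed against E18.

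Over all genes tested, calls ranged over the settings from 2511 to 7962 higher and 217 to 1695 lower with DDC (4896 and 439 as reported), from 4822 to 12928 higher and 466 to 4799 lower at E18 (9020 and 1815), and from 620 to 4546 higher and 4299 to 12361 lower in DDC fed against E18 (2532 and 6723). The numbers 0 and 1 were not taken to pair samples: deviations of same-numbered samples correlated at 0.233 between DDC fed and normal fed, 0.139 between E18 and normal fed and 0.061 between DDC fed and E18. With the replicate block, 5102 genes were higher and 498 lower with DDC, 9157 and 1921 at E18, and 2686 and 6801 in DDC fed against E18. Leaving out a sample leaves its group with 1, assumed to vary like the other groups. Depth cannot be read from TPM, so no limit can be set for low values such as those of Pck2 or Hkdc1 in normal fed samples.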
